A study of Mus musculus with 15 samples.

Results

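The genes described here are 10 of the sugar-burning machinery of the cell: the glucose transporters Slc2a1 and Slc2a3 and the glycolytic enzymes Hk1, Hk2, Pfkp, Aldoa, Tpi1, Pgk1, Pkm and Ldha. They were taken by gene symbol from the annotation of an Affymetrix mouse expression array, out of 18193 genes measured. Where several probe sets named a gene, the one with the highest mean level was used. Levels are log2(intensity + 16), where intensity is the deposited signal of a probe set, so levels of different genes are not compared with each other. A gene entered the tests when it lay above the array median in at least 3 arrays, which 11871 genes did, all 10 of these among them.

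RNA came from sorted thymocytes of young adult mice on the C57BL/6 background, with 3 samples in each of 5 groups. PreDP cells (CD69-, TCRβ-) and PostDP cells (CD69+, TCRβ+) were CD4 CD8 double-positive thymocytes before and after selection, from B2m-/- mice. These lack the light chain of MHC class I, so their selected cells belong to the CD4 lineage. SM&M1 cells (Qa2-, CD69+) and M2 cells (Qa2+, CD69-) were less and more mature CD4 single-positive thymocytes from Rag2-GFP transgenic mice, in which GFP marks recently made T cells. For these the sort removed NKT, regulatory, γδ and recirculating T cells. Tak1-deficient SM&M1 cells (Qa2-, CD69+) came from Tak1f/fCD4Cre mice, in which Cre driven by CD4 regulatory sequence deletes Tak1 in thymocytes from the double-positive stage. The mouse line therefore changes together with the stage between PostDP and SM&M1, and together with the genotype in the comparison on Tak1, so that line and stage, or line and Tak1 loss, cannot be told apart. In these bulk samples a lower signal from fewer expressing cells and one from less RNA per cell cannot be told apart either.

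Glucose enters a cell through facilitative transporters of the SLC2A (GLUT) family and is trapped by phosphorylation by a hexokinase. Phosphofructokinase then commits it to glycolysis, aldolase splits the sugar, and triosephosphate isomerase, phosphoglycerate kinase and pyruvate kinase carry it to pyruvate with a gain of ATP. Lactate dehydrogenase turns pyruvate into lactate and renews the NAD+ that the pathway consumes. T cells are known for raising this pathway when their antigen receptor is engaged, and Myc and HIF-1 are known activators of many of its genes. Resting double-positive thymocytes are small cells with a modest metabolism, and at selection they receive a productive signal through their complete αβ receptor. In these samples many cell cycle genes were higher in PreDP than in PostDP, as given below, so PreDP is not taken as a resting baseline.

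The groups carried the markers of their sorts. The level of Cd69 was 9.10 ± 0.08 (SD, n = 3) in PreDP and 13.28 ± 0.26 in PostDP, Cd8a fell from 12.74 ± 0.26 in PostDP to 7.79 ± 0.21 in SM&M1, and Cd3e lay between 12.95 and 13.06 in all 5 groups. Map3k7, the gene of Tak1, an activating kinase of the NF-κB and MAP kinase pathways, was at 10.42 ± 0.03 in SM&M1 against 5.39 ± 0.65 in the Tak1-deficient cells. Cd8a stood at 9.63 ± 0.51 in the latter. Replicate 2 of the Tak1-deficient group was unlike the rest. Its median signal was 167.81, against 80.52 to 121.46 in the other 14 arrays, its Actb 3' to 5' signal ratio was 1.62 against 1.02 to 1.18, and its highest correlation with an array of its own group was 0.879 against 0.968 to 0.976 elsewhere. Results on the Tak1-deficient group are therefore given with and without it.

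The promoters of these genes were searched for short words that HIF-1 and Myc are known to bind. The 4 stretches printed here were chosen because 3 of the genes rose together from PreDP to PostDP while Tpi1 fell. RefSeq (GRCm38.p6) gave 14 promoters for 9 of the 10 genes, each read here as the 250 bases before the annotated start. The promoter of Slc2a3 is not analysed here. The searched words were ACGTG, the core of the hypoxia response element, its variant GCGTG, and CACGTG, the E-box, which contains ACGTG. Both strands were searched. Each stretch is on the gene's own strand, 5′ to 3′, with every ACGTG or GCGTG, or its reverse complement, in capitals.
Ldha (chr7:46845554-46845803, plus strand): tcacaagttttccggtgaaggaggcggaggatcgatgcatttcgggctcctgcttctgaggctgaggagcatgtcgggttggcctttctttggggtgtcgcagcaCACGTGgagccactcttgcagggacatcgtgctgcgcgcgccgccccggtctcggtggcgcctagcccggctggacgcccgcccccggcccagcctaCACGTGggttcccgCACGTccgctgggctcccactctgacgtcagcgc
Hk2 (chr6:82774455-82774704, minus strand): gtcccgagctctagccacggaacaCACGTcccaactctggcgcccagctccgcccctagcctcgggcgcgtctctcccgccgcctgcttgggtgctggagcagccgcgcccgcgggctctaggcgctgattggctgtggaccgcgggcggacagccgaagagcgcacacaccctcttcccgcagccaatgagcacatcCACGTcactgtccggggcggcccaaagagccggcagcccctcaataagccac
Pfkp (chr13:6648772-6649021, minus strand): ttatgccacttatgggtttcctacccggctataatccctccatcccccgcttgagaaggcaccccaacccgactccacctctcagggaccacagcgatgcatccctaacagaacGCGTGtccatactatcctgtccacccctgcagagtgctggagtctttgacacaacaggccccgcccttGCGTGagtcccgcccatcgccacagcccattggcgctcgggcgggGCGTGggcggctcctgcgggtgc
Tpi1 (chr6:124814159-124814408, minus strand): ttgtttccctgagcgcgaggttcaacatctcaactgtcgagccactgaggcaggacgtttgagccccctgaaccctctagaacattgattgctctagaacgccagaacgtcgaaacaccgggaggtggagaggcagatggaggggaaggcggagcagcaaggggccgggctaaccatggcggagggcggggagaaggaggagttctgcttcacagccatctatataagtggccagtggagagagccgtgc

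The Ldha stretch held ACGTG 5 times, counting both strands, and its CACGTG words began 145 and 48 bases before the start. Hk2 held ACGTG 226 and 52 bases before its start. Pfkp held no ACGTG but 3 copies of GCGTG, at 136, 68 and 23 bases. Tpi1 held neither word in this window. The words were not confined to genes that rose from PreDP to PostDP. Of the genes not printed, Aldoa rose and held ACGTG. Slc2a1, Pgk1 and Pkm also held ACGTG and Hk1 held GCGTG, and none of these was called at that step. The second Ldha promoter held no ACGTG, and GCGTG at 59 bases. Over all 9 genes, 7 of 14 promoters (6 genes) held ACGTG, against 16.6% of the 32851 mouse promoters of the same length. GCGTG was in 4 of 14, against 28.2% of all, and CACGTG in 1 of 14, against 6.0%. Aldoa accounts for 2 of the 7 with promoters that overlap each other. These are matches of letters and describe the windows only.

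**Figure D1:**
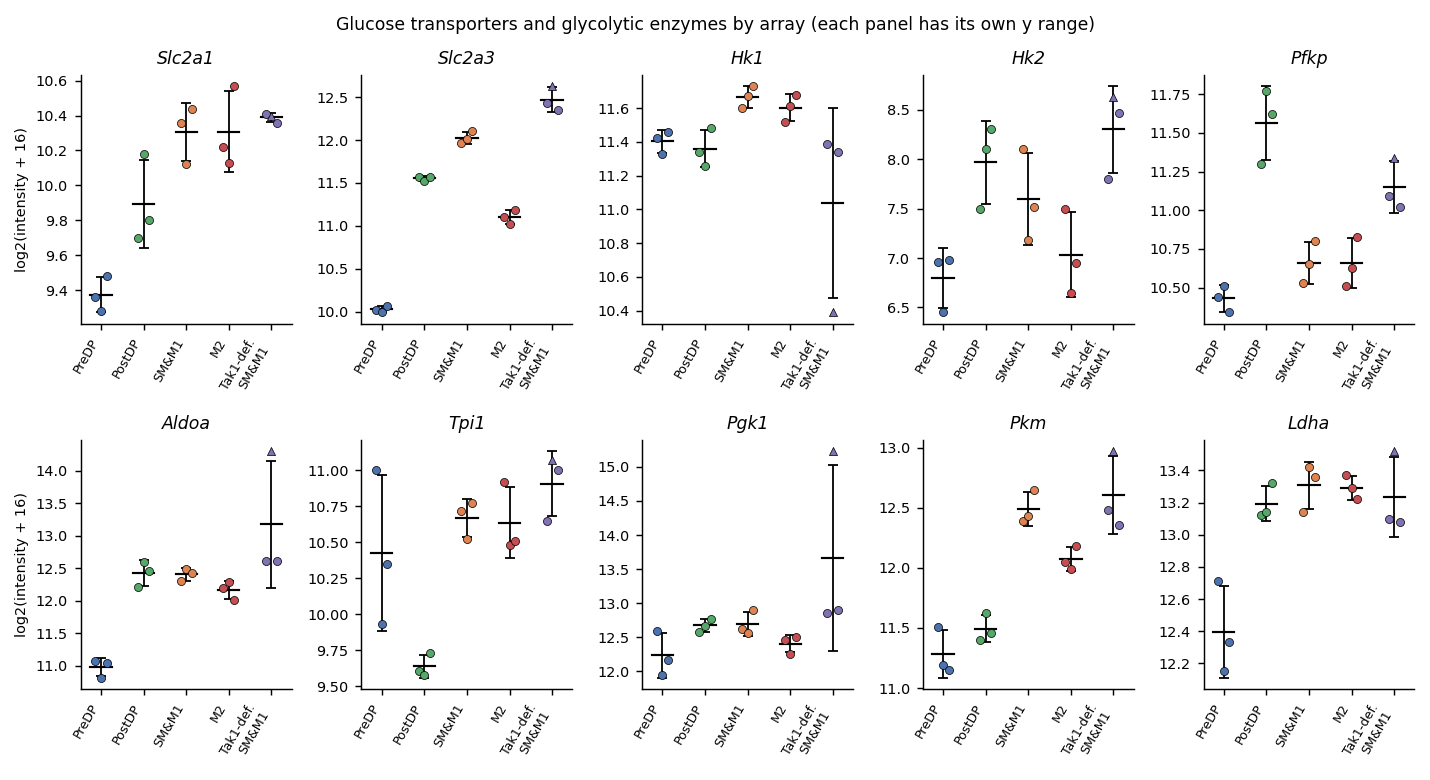
Level of each of the 10 genes, as log2(intensity + 16) on the y axis, in the 15 arrays of the 5 groups on the x axis; each panel has its own y range. Points are arrays, bars are the group mean with its SD (n = 3), and the triangle is Tak1-deficient SM&M1 replicate 2, which is far from its group for Aldoa (14.30), Pgk1 (15.23) and Hk1 (10.39).

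PreDP had the lowest mean of the 5 groups for 8 of the 10 genes, as the plot of levels by array shows. The exceptions were Tpi1, lowest in PostDP, and Hk1, lowest in Tak1-deficient SM&M1. The Tak1-deficient group had the highest mean for 7 genes, or for 6 without its replicate 2. How often these groups were lowest or highest over all tested genes was not counted, so these counts describe the 10 genes only. The 5 groups of each gene give 4 pairs of neighbours in the order of their means, 40 in all. limma called 7 of these 40 neighbour pairs different at an adjusted p under 0.05, of which Slc2a3 gave 3 and Aldoa, Tpi1, Pkm and Ldha 1 each. No neighbours were called for Slc2a1, Hk1, Hk2, Pfkp or Pgk1, so their orders are not resolved step by step. The contrasts of groups that are not in the comparisons below called a large share of all tested genes: 24.5% for SM&M1 against PreDP, 18.8% for M2 against PostDP and 26.6%, 10.9% and 14.5% for Tak1-deficient SM&M1 against PreDP, PostDP and M2. The count of 7 fell to 2 when each array was centred on its median, and ranged from 3 to 9 when arrays were left out in turn. It was 3 without any 1 of the PostDP replicates 1, 2 and 3, and 4 without M2 replicate 1 or M2 replicate 2.

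Slc2a3 encodes GLUT3, a high-affinity glucose transporter, and gave 3 of the 7 called neighbour pairs. Its level was 10.02, 10 and 10.07 in the PreDP samples and 11.57, 11.52 and 11.57 in the PostDP samples. It was 11.96, 12.01 and 12.10 in SM&M1 and 11.10, 11.02 and 11.19 in M2. The groups stood in the order SM&M1, PostDP, M2, PreDP, and no array of one of these groups reached into the range of another. The rise from PreDP to PostDP was 1.52 ± 0.13 (log2 fold change ± SE, 3 arrays a group), a 2.88-fold difference (limma, adjusted p = 3.03e-06). From PostDP to SM&M1 it rose by a further 0.47 ± 0.13, or 1.38-fold (limma, adjusted p = 0.029). That second call was lost in 10 of 26 alternatives, among them leaving out any 1 of the replicates of PostDP or of SM&M1 (adjusted p between 0.062 and 0.112). In M2 it was 1.89-fold lower than in SM&M1 (log2 fold change -0.92 ± 0.13, limma, adjusted p = 0.00186), yet still 2.10-fold higher than in PreDP (adjusted p = 2.42e-05). M2 also lay below PostDP, by 0.45 ± 0.13 (limma, adjusted p = 0.0222).

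The second probe set of Slc2a3 above the array median moved in the same direction in each comparison, by 1.78 from PreDP to PostDP, 0.58 from PostDP to SM&M1 and -0.96 from SM&M1 to M2. The other probe sets of the gene, 2 in number, were never above the array median. Averaging all 4 brought the M2 difference to -0.53 and ended its call (limma, adjusted p = 0.0992). SM&M1 replicate 1 and M2 replicate 1 had the highest summed macrophage and granulocyte markers of their groups. Without both of these arrays the M2 difference of Slc2a3 was -0.95 ± 0.17 (limma, adjusted p = 0.0253).

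In the Tak1-deficient SM&M1 samples Slc2a3 stood at 12.43, 12.63 and 12.35, above all 3 SM&M1 samples. The difference of 0.45 ± 0.13 did not pass (limma, adjusted p = 0.0969), and it was 0.37 without the outlying replicate 2.

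Slc2a1 encodes GLUT1, the transporter that activated T cells are known to raise. Its level was 9.36, 9.28 and 9.48 in PreDP, 9.70, 10.18 and 9.80 in PostDP, 10.36, 10.12 and 10.44 in SM&M1 and 10.22, 10.13 and 10.57 in M2. PreDP lay below all arrays of the other groups, while PostDP overlapped both single-positive groups. Between the ends of the sequence Slc2a1 was 1.91-fold higher in M2 than in PreDP (log2 fold change 0.93 ± 0.17, limma, adjusted p = 0.000866), a call kept in every alternative run. The step from PreDP to PostDP was 0.52 ± 0.17 and missed the threshold (limma, adjusted p = 0.0562). It passed in 4 of 26 alternatives, one being the fit without Tak1-deficient SM&M1 replicate 2 (adjusted p = 0.0296). In the step to SM&M1 the probe sets disagreed in sign, at 0.42 for the one used and -0.15 and -0.24 for the other 2. The 3 Tak1-deficient samples were at 10.41, 10.40 and 10.36, within the range of SM&M1 by the probe set used (0.08 ± 0.17, limma, adjusted p = 0.807, and 0.08 without replicate 2), whereas the other 2 probe sets were higher by 0.58 and 0.45. M2 and SM&M1 had the same mean of 10.31, with a 95% interval of the difference from -0.36 to 0.36.

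Hk1 and Hk2 encode hexokinases, the enzymes of the first step. Hk1, the form most tissues express throughout, was at 11.42, 11.33 and 11.46 in PreDP and 11.34, 11.26 and 11.48 in PostDP. It was at 11.60, 11.67 and 11.73 in SM&M1 and 11.52, 11.61 and 11.68 in M2. The means of these 4 groups spanned 11.36 to 11.67, and no difference among the comparisons made here passed for Hk1. In the Tak1-deficient samples it was at 11.39, 10.39 and 11.34, all below the SM&M1 samples, with the outlying replicate 2 the lowest. The difference of -0.63 ± 0.22 did not pass (limma, adjusted p = 0.17) and was -0.30 without replicate 2. A second Hk1 probe set was lower by 1.30 (-1.30, or -1.39 without replicate 2), and the mean of both probe sets gave -0.96 and passed (limma, adjusted p = 0.0118). Another probe set that names Hk1 also names Rpl17 and 4 other genes and was not used.

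Hk2, the inducible hexokinase of activated and growing cells, was a dim gene with 1 probe set, above the array median in 12 of 15 arrays. It was at 6.96, 6.45 and 6.98 in PreDP and 7.50, 8.10 and 8.30 in PostDP, with no overlap. Hk2 rose 2.25-fold between these groups (log2 fold change 1.17 ± 0.32, limma, adjusted p = 0.0228). The call was lost without PreDP replicate 2 (adjusted p = 0.0978), PostDP replicate 2 (0.0802) or PostDP replicate 3 (0.104). Hk2 was then at 8.10, 7.18 and 7.52 in SM&M1 and 7.50, 6.65 and 6.95 in M2, and in both groups replicate 1 was the highest. M2 against SM&M1 gave -0.57 ± 0.32 (limma, adjusted p = 0.656). With a replicate block in the fit of these groups alone, the same difference had an SE of 0.08 and passed (limma, adjusted p = 0.0421). That block takes equal replicate numbers as pairs, which the labels do not state. In the Tak1-deficient cells Hk2 was at 7.80, 8.63 and 8.47, overlapping SM&M1, and the difference of 0.70 ± 0.32 did not pass (limma, adjusted p = 0.27) and was 0.54 without replicate 2.

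Pfkp encodes the platelet-type phosphofructokinase, which catalyses the committing step. It stood at 10.44, 10.51 and 10.34 in PreDP, 11.30, 11.77 and 11.62 in PostDP, 10.53, 10.65 and 10.80 in SM&M1 and 10.51, 10.63 and 10.83 in M2. The 3 PostDP arrays were above every array of the other 3 Tak1-sufficient groups, though they overlapped the Tak1-deficient samples. The mouse line changes between PostDP and SM&M1, so a peak of the stage cannot be told from a difference of line. It rose 2.19-fold from PreDP to PostDP (log2 fold change 1.13 ± 0.16, limma, adjusted p = 0.000339) and fell 1.87-fold from PostDP to SM&M1 (-0.90 ± 0.16, adjusted p = 0.00264). Both calls were kept in every alternative run, and the other 2 probe sets of Pfkp moved the same way, by 0.59 and 1.42 and then by -0.41 and -1.82. M2 and SM&M1 shared a mean of 10.66, with an interval of the difference from -0.35 to 0.35. Tak1-deficient cells were at 11.09, 11.34 and 11.02, above all SM&M1 arrays, by 0.49 ± 0.16 (limma, adjusted p = 0.149, not passing), or by 0.39 without replicate 2. The other probe sets of Pfkp gave 0.08 and -0.44 for that difference.

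Aldoa encodes aldolase A, which splits fructose bisphosphate into triose phosphates. It was at 11.08, 10.82 and 11.04 in PreDP and 12.21, 12.60 and 12.46 in PostDP. It stayed near that level, at 12.30, 12.49 and 12.43 in SM&M1 and 12.20, 12.29 and 12.01 in M2. PreDP was apart from all other groups. The rise from PreDP to PostDP was 2.72-fold (log2 fold change 1.44 ± 0.34, limma, adjusted p = 0.0112), was kept in every alternative run and had the same sign in the other 4 probe sets (0.32 to 1.52). M2 was 2.28-fold above PreDP (1.19 ± 0.34, adjusted p = 0.0194), a call lost without PreDP replicate 2 (0.0676), M2 replicate 1 (0.0534) or M2 replicate 2 (0.0623). The Tak1-deficient samples were at 12.62, 14.30 and 12.61, with replicate 2 far above the others. The difference from SM&M1 was 0.77 ± 0.34 with it (limma, adjusted p = 0.266) and 0.21 without it.

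Tpi1 encodes triosephosphate isomerase, which interconverts the trioses made by aldolase. It was the 1 gene of the 10 that fell on selection, at 11, 9.93 and 10.35 in PreDP against 9.61, 9.58 and 9.73 in PostDP. The groups did not overlap, but the PreDP arrays were far apart, with replicate 1 the highest. The fall was 1.72-fold (log2 fold change -0.79 ± 0.23, limma, adjusted p = 0.0381). It was lost in 15 of 26 alternatives, where the adjusted p ranged up to 0.146, the value without PreDP replicate 1. With a replicate block in the fit of PreDP and PostDP alone, which takes equal numbers as pairs, it was -0.79 ± 0.23 (limma, adjusted p = 0.0647). Arrays whose absence alone ended the call were PreDP replicates 1 and 3 (0.0718), all 3 of PostDP (0.0811 to 0.112), all 3 of SM&M1 (0.05 to 0.0522) and M2 replicate 3 (0.0508).

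From PostDP to SM&M1 Tpi1 rose 2.04-fold, to 10.72, 10.52 and 10.77 (log2 fold change 1.03 ± 0.23, limma, adjusted p = 0.0114; 0.0501 without SM&M1 replicate 3). The other 2 probe sets rose by 0.94 each. Its level in M2 was 10.92, 10.48 and 10.51, overlapping SM&M1, PreDP and the Tak1-deficient samples at 10.65, 11.07 and 11. The difference of the Tak1-deficient group from SM&M1 was 0.24 ± 0.23 (limma, adjusted p = 0.594) and 0.16 without its replicate 2. Genes of the cell cycle moved in the same directions at both steps. Of 15 tested, 10 were lower in PostDP than in PreDP and 8 were higher in SM&M1 than in PostDP, none moving the other way. Their summed intensity was 77007, 33451 and 40395 in PreDP, 14660 to 20264 in PostDP and 32246 to 39316 in SM&M1. Within PreDP, replicate 1 was highest for both the sum and Tpi1. It was also the highest PreDP array for Aldoa, Pgk1, Pkm and Ldha, of which Aldoa and Ldha rose to PostDP. The part of cycling cells in the Tpi1 result was not tested.

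Pgk1 encodes phosphoglycerate kinase 1, the first ATP-yielding enzyme of the pathway. It was at 12.59, 11.95 and 12.16 in PreDP, 12.58, 12.67 and 12.77 in PostDP, 12.62, 12.56 and 12.90 in SM&M1 and 12.46, 12.26 and 12.50 in M2. None of the 5 comparisons shown in the plot of fold changes passed for Pgk1, and among the 4 Tak1-sufficient groups its ranges overlapped except between M2 and each of PostDP and SM&M1. From PreDP to PostDP the difference was 0.44 ± 0.47 (limma, adjusted p = 0.651), with a 95% interval from -0.57 to 1.45. The mean of its 3 probe sets gave 0.53 ± 0.17 there and passed (adjusted p = 0.0441). The fit shares 1 error over all groups, and Tak1-deficient replicate 2 stood at 15.23, beside 12.85 and 12.90 in the other 2 arrays of its group. The difference from SM&M1 was 0.97 ± 0.47 with that array (limma, adjusted p = 0.297) and 0.18 without it. A second probe set read 12.99 on that array and gave 0.18 with it and 0.13 without it. The other probe set read 9.23 there and gave -0.22 with it and 0.46 without it. Against PreDP the Tak1-deficient group passed as higher (1.42 ± 0.47, limma, adjusted p = 0.0383), with a group mean of 13.66 that was 12.87 without replicate 2.

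**Figure D2:**
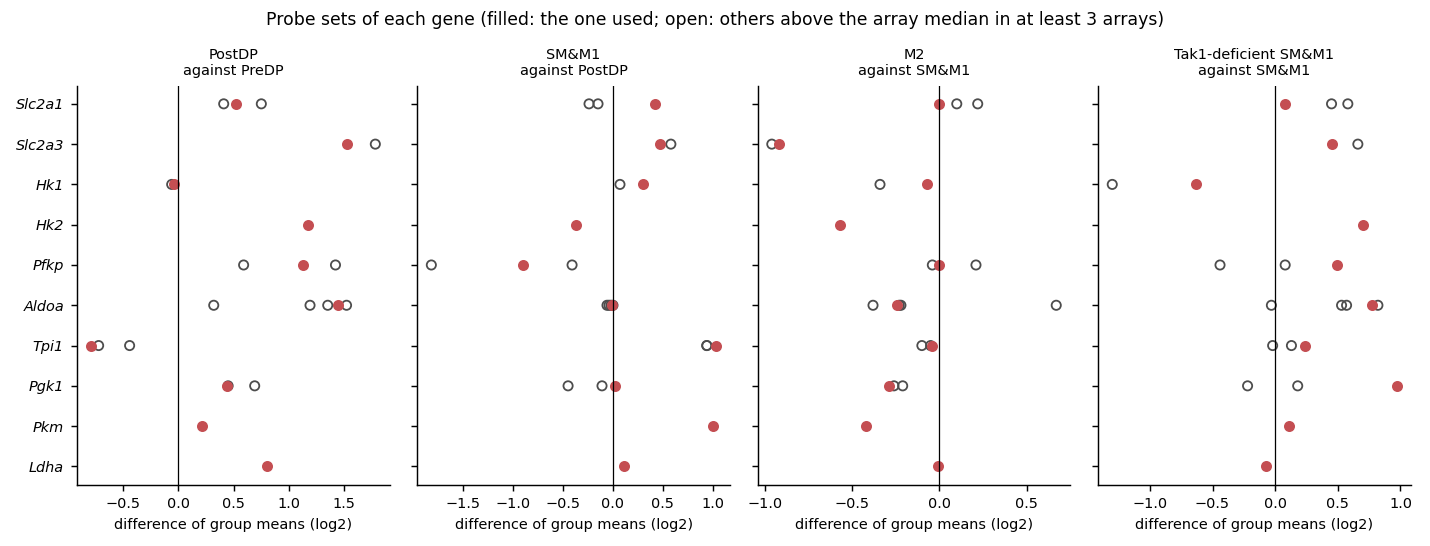
Difference of group means (x axis, log2) by every probe set that names only the gene and lay above the array median in at least 3 arrays, for 4 comparisons; the filled point is the probe set used. The probe sets of Slc2a3 and Tpi1 lie close together in the first 3 comparisons, while Slc2a1 has both signs at SM&M1 against PostDP (-0.24 to 0.42) and Pgk1 spreads up to 0.97 in the Tak1-deficient comparison.

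Pkm encodes the muscle-type pyruvate kinase, whose isoforms share this 1 probe set and are not told apart. It was at 11.51, 11.19 and 11.15 in PreDP and 11.40, 11.62 and 11.46 in PostDP, overlapping. It was at 12.39, 12.43 and 12.65 in SM&M1 and 12.05, 11.99 and 12.18 in M2, and the groups on either side of the single-positive boundary did not overlap. Pkm rose 2.0-fold from PostDP to SM&M1 (log2 fold change 1.0 ± 0.18, limma, adjusted p = 0.00239), in every alternative run. M2 was lower than SM&M1 in all 3 arrays, by 0.42 on average (-0.42 ± 0.18), which did not pass (limma, adjusted p = 0.404). M2 remained 1.73-fold above PreDP (0.79 ± 0.18, adjusted p = 0.00408), a call lost with arrays centred on their median (0.0536), and above PostDP (adjusted p = 0.0339). The Tak1-deficient samples, at 12.48, 12.97 and 12.36, overlapped SM&M1 (0.11 ± 0.18, limma, adjusted p = 0.759). Without replicate 2 the sign turned, to -0.08 ± 0.14 (adjusted p = 0.832), and SM&M1 had the highest Pkm mean.

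Ldha encodes the lactate dehydrogenase subunit that favours lactate formation. It was at 12.71, 12.15 and 12.33 in PreDP and 13.12, 13.14 and 13.32 in PostDP, then at 13.14, 13.42 and 13.36 in SM&M1, 13.37, 13.29 and 13.22 in M2 and 13.10, 13.52 and 13.08 in the Tak1-deficient samples. All 12 arrays after PreDP were above the 3 PreDP arrays and overlapped among themselves. The rise to PostDP was 1.74-fold (log2 fold change 0.80 ± 0.18, limma, adjusted p = 0.00687), and it was 0.66 and lost its call with arrays centred on their median (0.115). M2 was 1.86-fold above PreDP (0.90 ± 0.18, adjusted p = 0.00165), in every alternative run. No later step differed beyond its error: the 95% intervals were -0.27 to 0.49 from PostDP to SM&M1 and -0.39 to 0.37 from SM&M1 to M2. Tak1-deficient SM&M1 differed from SM&M1 by -0.07 ± 0.18 (limma, adjusted p = 0.839), or by -0.22 without replicate 2.

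**Figure D3:**
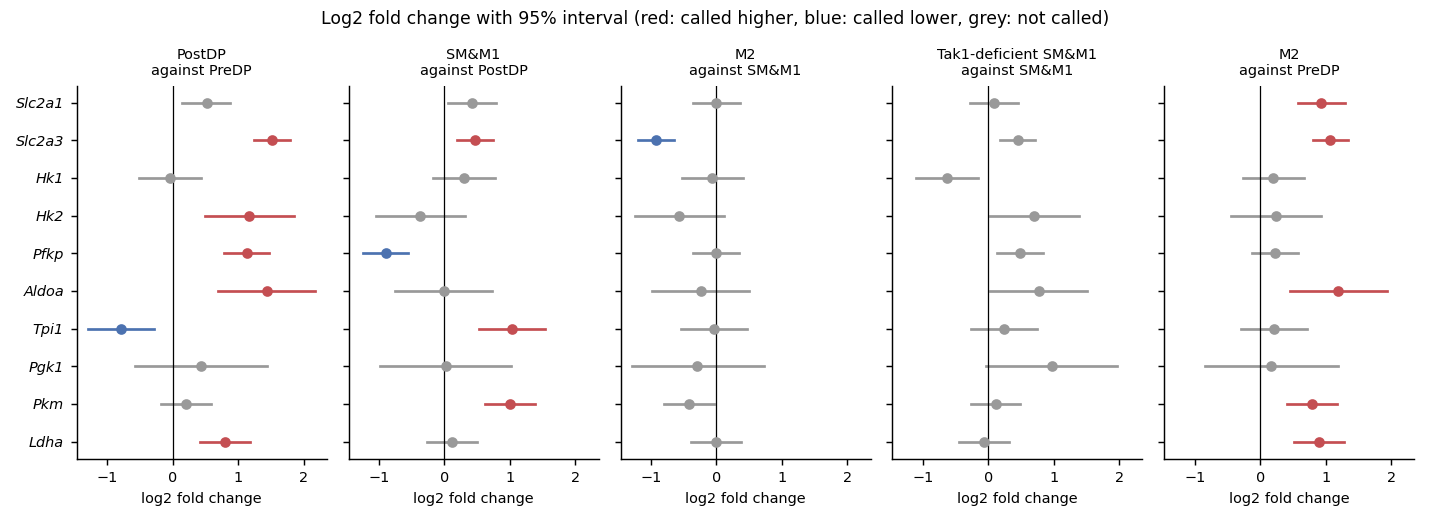
Log2 fold change (x axis) of each gene in the 5 comparisons, with its unadjusted 95% interval; red genes passed as higher, blue as lower (limma, adjusted p under 0.05), grey did not pass. Most red points are in PostDP against PreDP (5 of 10 genes) and M2 against PreDP (5 of 10), and Slc2a3 alone is coloured in M2 against SM&M1.

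PostDP against PreDP asks what changes when double-positive cells have received their selecting signal. The groups also differed in cell cycle genes, of which 10 of 15 tested were lower in PostDP (median log2 fold change -2.72). Mki67 was at 11.6 ± 0.65 in PreDP and 7.94 ± 1.21 in PostDP. The part of cycling cells in the results of the 10 genes was not tested. Of the 10 genes, 5 rose (Slc2a3, Hk2, Pfkp, Aldoa and Ldha) and Tpi1 fell. Among all tested genes 14.9% passed, 7.35% higher and 7.57% lower. The median log2 fold change was 0.66 over the 10 genes and 0.015 over all tested genes. Slc2a3, Pfkp and Aldoa passed in every alternative run. Centring each array on its median moved the median of all genes to -0.13 and the calls over all genes from 873 higher and 899 lower to 440 and 778. Under that scaling 4 of the 10 genes passed, all higher.

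The remainder of the pathway was read from 6 lists: other glucose transporters, other glycolytic enzymes, glycolysis rate control, pyruvate and lactate handling, pentose phosphate and branch enzymes, and other HIF-1 target genes. Together they had 70 genes tested, of which 7 rose and 6 fell from PreDP to PostDP, where 14.9% of all tested genes passed. Of these 13 calls 6 were kept in every alternative run, while those of Pgam1, Bpgm, Tigar, Egln3, Txnip, Pdk2 and Psat1 were lost in some. Bpgm and Egln3 were each lost in 16 of 26. Of the other glycolytic enzymes 11 were tested, and Gapdh, Eno1 and Gpi1 are not analysed here because no probe set names them alone. Eno2, an enolase, rose from 5.28, 5.85 and 6.40 to 7.60, 7.84 and 8.04 (1.98 ± 0.25, limma, adjusted p = 0.000117). It was dim, and its PreDP levels all lay below the array median. Pgam1, phosphoglycerate mutase, rose by 0.85 ± 0.18 (adjusted p = 0.0058). Bpgm, which diverts a triose phosphate to 2,3-bisphosphoglycerate, fell by 0.65 (-0.65 ± 0.20, adjusted p = 0.0474). In the rate-control list, 3 of 14 rose and 1 fell. Myc, the transcription factor, rose from 8.42, 8.33 and 8.60 to 9.25, 9.86 and 10.19 (1.32 ± 0.20, adjusted p = 0.000546). Tigar, a phosphatase that lowers fructose 2,6-bisphosphate, rose by 0.73 ± 0.15 and Egln3, a prolyl hydroxylase of HIF, by 0.83 ± 0.25. Txnip, which limits glucose uptake, fell by 0.65 (-0.65 ± 0.16, adjusted p = 0.0155).

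On the side of pyruvate and lactate, none of 15 tested genes rose and 2 fell from PreDP to PostDP. Of all tested genes 14.9% passed there, 7.35% higher and 7.57% lower. Slc16a1 encodes MCT1, a carrier of lactate and pyruvate across the cell membrane. It went from 12.45, 12.55 and 12.52 in PreDP to 10.66, 11.03 and 10.98 in PostDP (-1.62 ± 0.37, limma, adjusted p = 0.00902). The PreDP arrays of Slc16a1 were higher than every other array of the study. Pdk2, a kinase that inhibits pyruvate dehydrogenase, also fell (-1.11 ± 0.29, adjusted p = 0.0194). Among 16 branch enzymes Psat1 of serine synthesis rose (0.93 ± 0.21) and Pgls of the pentose phosphate pathway fell (-1.43 ± 0.21). Among 10 other HIF-1 targets Ndrg1, a stress-responsive gene, rose by 3.66 ± 0.19, from 7.25, 7.80 and 7.57 to 10.97, 11.26 and 11.36 (adjusted p = 4.77e-08). Mxi1, an antagonist of Myc, fell (-0.99 ± 0.14), and the median of that list was 0.10. Beside these changes the summed intensity of 7 regulatory T cell markers went from between 3996 and 4640 in PreDP to between 10873 and 12563 in PostDP, with Ikzf2 and Gpr83 the tested genes that rose. The part of such cells in these values was not tested.

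SM&M1 against PostDP follows the cells into the CD4 single-positive stage. Cell cycle genes changed here too, 8 of 15 tested being higher in SM&M1 (median log2 fold change 1.51), and the part of cycling cells was not tested. Pkm, Tpi1 and Slc2a3 rose and Pfkp fell, 4 of 10 genes, where 12% of all tested genes passed (7.84% higher and 4.14% lower). The median log2 fold change was 0.20 over the 10 and 0.026 over all tested genes. Pkm and Pfkp passed in every alternative run. Without SM&M1 replicate 3 the count was 2, these same genes. Of the 70 other genes 3 rose and 3 fell. The calls of Egln3 and Pgls were kept in every alternative run, and those of Slc2a9 (lost in 8 of 26), Ldhb (13 of 26), Tigar (4 of 25) and Pdp2 (7 of 26) were not. Slc2a9, a urate and hexose transporter, rose from 8.10, 8.23 and 8.18 to 8.66, 9.06 and 8.85 (0.69 ± 0.18, limma, adjusted p = 0.0242). Ldhb, the lactate dehydrogenase subunit that favours pyruvate formation, fell from 13.01, 12.70 and 12.67 to 11.54, 11.55 and 11.87 (-1.14 ± 0.34, adjusted p = 0.043). Egln3 fell from 10.87, 11.15 and 10.49 to 8.79, 8.64 and 8.75 (-2.11 ± 0.25, adjusted p = 0.000134). Tigar (0.66 ± 0.15) and Pgls (1.0 ± 0.21) rose, and Pdp2, a phosphatase that activates pyruvate dehydrogenase, fell (-0.57 ± 0.14).

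M2 against SM&M1 is the last maturation step and lies within 1 mouse line. Slc2a3 was lower and the other 9 genes did not pass, where 2.33% of all tested genes passed (0.952% higher and 1.38% lower). The median over the 10 genes was -0.16 and over all tested genes -0.005. A fit of only these groups with the replicate block gave 2 lower genes, Slc2a3 and Hk2, and 594 calls over all genes in place of 277. Of the 70 other genes, Epas1 (HIF-2α) rose from 7.51, 7.61 and 7.88 to 8.94, 9.02 and 8.92 (1.29 ± 0.25, limma, adjusted p = 0.0151). Eno2 fell from 7.25, 7.32 and 6.76 to 5.93, 6.10 and 6.01 (-1.10 ± 0.25, adjusted p = 0.0355), and its M2 levels all lay below the array median. Egln3 (-1.25 ± 0.25, adjusted p = 0.0201) and Psat1 (-0.98 ± 0.21, adjusted p = 0.0282) fell as well. Each of these 4 calls was lost in some alternatives. The summed intensity of macrophage markers was 2030, 680 and 848 in SM&M1 and 2027, 813 and 902 in M2, high in replicate 1 of both groups, and that of granulocyte markers was 4366, 640 and 979 and then 4468, 659 and 654. The same was seen for effector and innate-like T cell markers, at 7847, 3881 and 2993 in SM&M1 and 7475, 3313 and 3416 in M2, where all 11 measured lay above the array median in both replicates 1. Dendritic cell markers summed to between 14686 and 19257 in SM&M1 and between 2851 and 8625 in M2. Most of that sum is Ccr9, a chemokine receptor that thymocytes also express. Without Ccr9 the sums were 3169, 503 and 800 in SM&M1 and 3497, 823 and 881 in M2. Regulatory T cell markers summed to between 12508 and 17054 in SM&M1 and between 8554 and 9761 in M2. With replicate 1 of both groups left out Slc2a3 stayed the 1 gene of the 10 that passed.

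Tak1-deficient SM&M1 against SM&M1 asks what loss of Tak1 does in cells of the same Qa2-, CD69+ phenotype. The labels give the gates against NKT, regulatory, γδ and recirculating T cells for the Rag2-GFP groups and say nothing of them for the Tak1-deficient one. None of the 10 genes passed in limma, where 1.69% of all tested genes did (0.43% higher and 1.26% lower). At an unadjusted p under 0.05 there were 5 of 10, against 17.9% of all tested genes: Slc2a3, Pfkp, Aldoa and Hk2 higher and Hk1 lower. The median over the 10 was 0.34, or 0.17 without replicate 2, and over all tested genes it was 0.055, or 0.041 without that array. The latter became -0.093 with arrays centred on their median. The count stayed 0 without replicate 2, and it was 1 lower, Hk1, with the mean of all probe sets. A fit of only these groups called 5 genes in the whole table, and none of the 10. Of the 70 other genes none passed and 14 were at an unadjusted p under 0.05. Macrophage markers summed to 915, 3499 and 2450 and granulocyte markers to 1438, 4680 and 6026 in the 3 Tak1-deficient arrays. Regulatory T cell markers summed to between 8147 and 9523, below all SM&M1 arrays, and dendritic cell markers without Ccr9 to 848, 2280 and 3680. Effector and innate-like T cell markers summed to 2309, 4013 and 5942 in these arrays. None of 5 macrophage and 7 granulocyte markers tested passed here. By contrast, 3 of 6 regulatory T cell markers and 2 of 10 effector and innate-like T cell markers tested passed as lower. The part of such cells in these values was not tested.

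M2 against PreDP spans the sequence. Slc2a1, Slc2a3, Aldoa, Pkm and Ldha were higher, 5 of 10, and none was lower, where 27.1% of all tested genes passed (14.6% higher and 12.5% lower). The median over the 10 was 0.52 and over all tested genes 0.049. Centring on the array median moved the latter to -0.103, turned the calls over all genes from 1738 higher and 1484 lower to 1061 and 1324, and left 4 of the 10. Hk1, Hk2, Pfkp, Tpi1 and Pgk1 did not pass, with differences from 0.17 to 0.24. This comparison shares its PreDP samples with PostDP against PreDP and its M2 samples with M2 against SM&M1. The mouse line also changes across it, from B2m-/- to Rag2-GFP, so line and stage cannot be told apart here.

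Over the same span 8 of the 70 other genes rose and 9 fell. Of these 17 calls 11 were kept in every alternative run, and those of Adpgk, Pgam1, Vhl, Pdhx (lost in 16 of 25), Gfpt1 and Adm were lost in some. Ldhb reached 10.49, 10.60 and 10.51 in M2 from 13.68, 13.17 and 13.31 in PreDP (-2.85 ± 0.34, limma, adjusted p = 2.49e-05), a direction opposite to that of Ldha. Slc16a1 fell to 10.19, 9.99 and 10 (-2.44 ± 0.37, adjusted p = 0.000217). None of 15 genes of pyruvate and lactate handling rose and 4 fell, where 27.1% of all tested genes passed (14.6% higher and 12.5% lower). Beside Slc16a1, those that fell were Pdp2 (-0.62 ± 0.14) and the pyruvate dehydrogenase subunits Dlat (-0.76 ± 0.19) and Pdhx (-0.52 ± 0.17). Myc rose to 10.86, 10.73 and 10.68 (2.30 ± 0.20, adjusted p = 1.6e-06) and Tigar by 1.61 ± 0.15, while Egln3 (-2.52 ± 0.25) and Vhl (-0.70 ± 0.14), which together mark HIF for destruction, fell. Adpgk, an ADP-dependent glucokinase, rose by 0.96 ± 0.19 and Pgam1 by 0.61 ± 0.18. Among the branch enzymes Pgm1 (1.01 ± 0.21) and Gfpt1 (0.78 ± 0.21), which lead to glycogen and to hexosamines, rose. Of the HIF-1 targets Ndrg1 (2.98 ± 0.19) and Adm (1.06 ± 0.27) rose, and Mxi1 (-1.60 ± 0.14) and Kdm3a (-0.89 ± 0.15) fell.

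**Figure D4:**
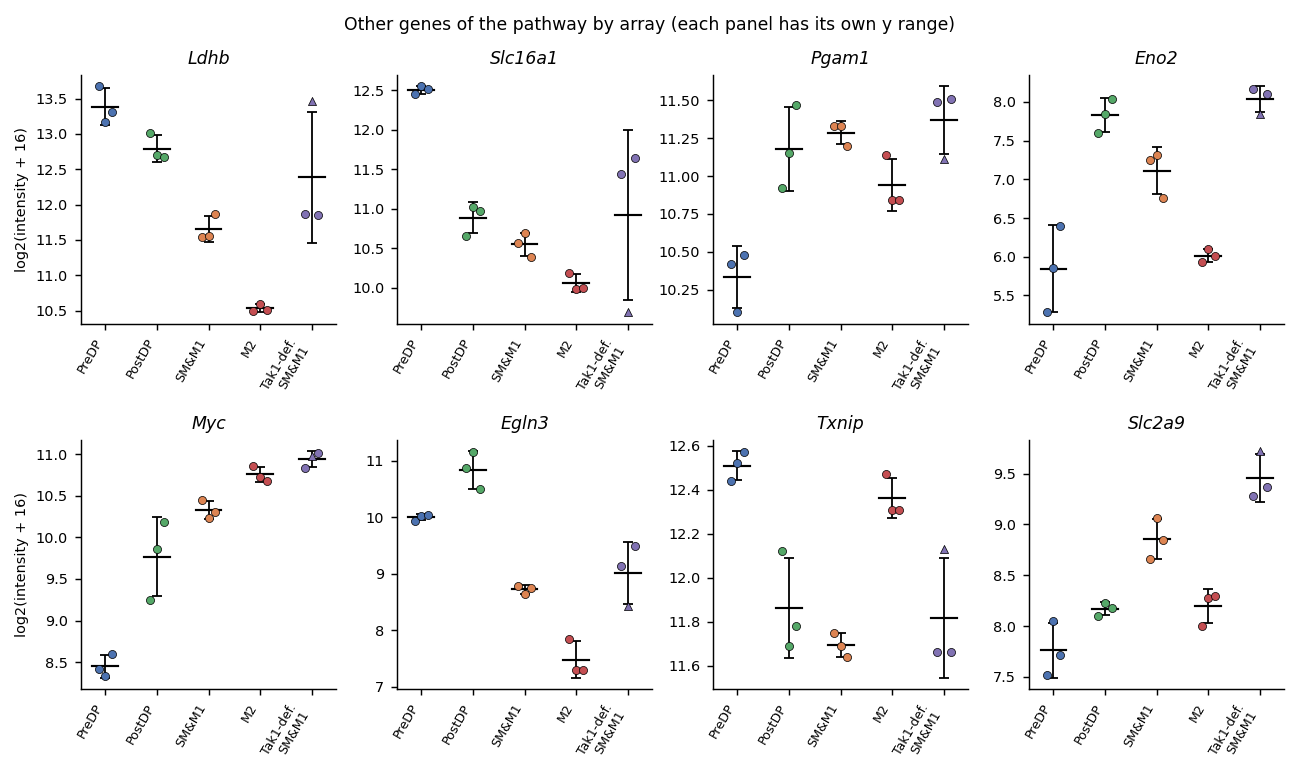
Level of 8 other genes of the pathway, as log2(intensity + 16) on the y axis, in the arrays of the 5 groups on the x axis, drawn as in the plot of the 10 genes; the triangle is Tak1-deficient SM&M1 replicate 2. Ldhb and Slc16a1 are highest in PreDP and lowest in M2 among the Tak1-sufficient groups, Myc is lowest in PreDP, and the outlying array reads 13.46 for Ldhb where the others of its group read 11.86 and 11.85.

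Among 11209 tested genes the profiles closest to a member were sought as the smallest root mean square difference between the 5 group means, each gene centred on its own mean. For Slc2a3, whose group means span 2.44, these were Trim13 (0.10), Atp9a (0.16) and Kcnmb4 (0.18). For Aldoa they were Nat10 (0.11), Cmtm3 (0.12) and Pdlim7 (0.13), and for Hk2 they were Stpg3 (0.07), Mmp14 (0.10) and Synj2 (0.11). For the mean profile of the 10 genes they were Speer3 (0.03), Ppie (0.03) and Mtx3 (0.04). Speer3 and Stpg3 were dim, with group means from 5.94 to 7.1 and from 5.61 to 6.99. All these likenesses are descriptions over 5 group means of the same 15 arrays, the outlying one included.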

How the data were processed

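Total RNA from sorted mouse thymocytes was amplified in 1 round and labelled with biotin, per the labels' protocols, and hybridised to 15 Affymetrix arrays. The authors deposited a linear signal intensity for each of 45101 probe sets. How these intensity values were computed is not given in the sources used here. By their values, each array's mean without the top and bottom 2% of probe sets is 500, so the arrays had been scaled before deposit, and no further normalization was applied. An array whose overall signal differs in shape, as that of Tak1-deficient SM&M1 replicate 2 does, keeps that difference under such scaling. Precision is limited by the number of arrays, 3 a group.

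Probe sets were named through the platform annotation, with symbols updated through RefSeq (GRCm38.p6). Of the probe sets, 34945 named 1 gene, 932 several and 9160 none, and 64 were controls. Probe sets naming several genes were not used. The 10 genes had 27 probe sets, 26 naming 1 gene, and each gene was read from the one with the highest mean. Values were analysed as log2(intensity + 16), so fold changes are on that scale and understate those of dim genes. Of 18193 genes, the 11871 above the array median (the 50th percentile) in at least 3 arrays entered limma 3.58.1 in R 4.3.3. The fit held all 15 arrays, 5 group means and 10 residual degrees of freedom, with no block. Benjamini-Hochberg adjustment ran over all genes tested, and a call is an adjusted p under 0.05. Intervals are 95% and unadjusted. The scripts were tested on simulated data in which 200 of 11871 genes were changed. There 36% to 55% of 2-fold and 88% to 95% of 4-fold changes were recovered. The simulated comparisons shared one design and differed in the random draw, and they held no outlying array. These shares are therefore not the power of the comparisons in the data. Since many simulated 2-fold changes were missed, a gene that did not pass cannot be taken as unchanged. Tables and figures were made with Python 3.11.15.

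The 10 genes and all lists were chosen with earlier results of these data known. In every comparison all 10 genes are named. From the 6 pathway lists up to 3 rises and 3 falls among genes that passed are named, and from the cell cycle and marker lists counts and sums. The sums of the macrophage and granulocyte markers are given with the results they touch. The same holds for the dendritic, effector or innate-like T and regulatory T cell lists. The 7 measured B cell markers summed to between 1838 and 2231 in PreDP and between 582 and 1781 in the other groups. None of the erythroid genes was tested, since all 5 measured lay below the limit. Groups came from the labels. These call the samples biological replicates but name no separate animals for them, so the spread behind every p-value is that of these samples and may be technical.

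Replicate numbers came from the labels. Samples of the same number deviated together from their group means in PostDP and PreDP, with correlations of 0.339, 0.275 and 0.411. The same held in M2 and SM&M1, at 0.553, 0.436 and 0.326. The main fit had no block and did not treat such samples as pairs, so its SEs and p-values take no account of this likeness. Equal numbers were taken as pairs only in the alternatives with the replicate block. Alternatives were the replicate block, a fit of only the groups compared, other filters, quantile normalization, centring on the array median, the mean of all probe sets, probe sets naming several genes, a pseudocount of 1, a robust eBayes with a trend, and leaving out each array. Leaving out pairs of arrays was added after seeing the data.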

Additional observations from a re-analysis of the deposited data

How the results depend on the processing

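None of the 16 called differences of the 10 genes changed sign under any alternative run, whereas 11 of the 34 that did not pass did so under at least 1. The 11 leave out Slc2a1 and Pfkp in M2 against SM&M1, whose rounded differences of 0.0 have no sign to change. Under the alternatives these ranged from -0.13 to 0.11 for Slc2a1 and from -0.08 to 0.08 for Pfkp. Over all genes, arrays centred on their median turned the majority of M2 against PreDP from higher to lower, as the report gives. For M2 against SM&M1 the count of the 10 genes that passed was 1; it was 2, both lower, with the replicate block in a fit of those groups alone, and 0 when all probe sets of a gene were averaged. For the Tak1-deficient comparison it was 0, and 1 with probe sets averaged. The count of resolved neighbour pairs, 7, was 2 with arrays centred on their median and ranged from 3 to 9 with arrays left out in turn. With arrays left out, the counts ranged from 4 to 7 for PostDP against PreDP (6 with all arrays), from 2 to 4 for SM&M1 against PostDP (4), from 4 to 5 for M2 against PreDP (5), and stayed at 1 and 0 for M2 against SM&M1 and for the Tak1-deficient comparison. The other alternatives kept these counts within 1.5 times. Apart from the calls of Tpi1 and Hk2 given in the report, the replicate block ended the call of Slc2a3 in SM&M1 against PostDP (adjusted p = 0.073 in limma, only these groups), where same-numbered samples correlated at -0.0103, 0.124 and 0.026 and share only a number. Where same-numbered samples deviated together, the block changed no other call of the 10 genes. Over all genes it gave 2703 calls in place of 1772 for PostDP against PreDP and 594 in place of 277 for M2 against SM&M1.

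Without Tak1-deficient SM&M1 replicate 2 the calls over all genes were 2992, 2726, 672, 347 and 4699, in the order of the comparisons in the report, against 1772, 1423, 277, 201 and 3222, with 7, 4, 1, 0 and 5 of the 10 genes. In the Tak1-deficient comparison a fit of its 2 groups alone gave 5 calls over all genes, and arrays centred on their median moved the split from 51 higher and 150 lower to 13 and 84. Hk2 lay below the stricter filter and could not be fitted there. The cause of each change was not tested.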
